A study of Homo sapiens with 11 samples.

Results

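Titin, the myomesins, nebulin and nebulette, cardiac myosin-binding protein C, LDB3 and telethonin are the scaffold that holds the filaments of the sarcomere in register. Their 9 genes (TTN, NEB, NEBL, MYOM1, MYOM2, MYOM3, MYBPC3, LDB3 and TCAP) were taken by name from a count table of 19990 genes and followed over 3 ages of cardiomyocyte culture. The cells were derived from the established induced pluripotent stem cell line WTC11 (human, passage 63), with no change of genotype or drug treatment between the groups. A single differentiation, driven by the GSK3 inhibitor CHIR99021 and then the Wnt secretion inhibitor IWP2, gave all wells. The groups were Day 30 (4 wells), Day 60 (3) and Day 113 (4) of culture in RPMI1640 with B27 and insulin, and poly(A) RNA of each well was sequenced. Because the replicates were wells of 1 differentiation of 1 line, p-values measure only the spread between these wells, and day cannot be told apart from collection.

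In a sarcomere, actin filaments are anchored at the Z-disc and myosin filaments are cross-linked at the M-band. Titin runs from one to the other as an elastic spring, telethonin (TCAP) caps its end at the Z-disc, and the myomesins bridge its other end to myosin at the M-band. LDB3, also called ZASP or Cypher, binds alpha-actinin at the Z-disc. Nebulin lines the actin filament in skeletal muscle, and nebulette (NEBL) is its shorter relative in heart. Cardiac myosin-binding protein C (MYBPC3) lies on the thick filament. Mutations in several of these genes cause cardiomyopathy.

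Among the 9 genes, 3 changed with day in the fit with day as the only factor, beside 37.1% of all genes. MYOM2, which encodes M-protein of the M-band, was higher at both later days than at Day 30, from a very low level. LDB3 was higher at Day 113 than at Day 60, and TCAP was lower at Day 113 than at both earlier days. With the well number as a replicate block, MYOM1 was also lower and LDB3 also higher at Day 113 than at Day 30 (adjusted p = 0.0154 and 0.0370, edgeR). Under that block NEB and MYOM1 were also lower at Day 113 than at Day 60 (adjusted p = 0.0182 and 0.0381, edgeR). TTN, the most heavily counted of the 9, took 0.510% ± 0.101 of all counts at Day 30 (SD, n = 4), 0.624% ± 0.0514 at Day 60 (SD, n = 3) and 0.528% ± 0.190 at Day 113 (SD, n = 4), and no change between days passed the test.

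Libraries held 24.1 M to 34.5 M counts (M is 1000000). Levels are given as CPM, counts per 1000000 counts after TMM scaling of the libraries. The 13 cardiomyocyte markers examined were above 3 counts in all 11 wells, and their CPM summed to 35514 to 49969 at Day 30, 44827 to 52166 at Day 60 and 39956 to 50165 at Day 113. The 13 did not all move together. Means were 15412, 14522 and 9277 CPM for MYH7 at the 3 days and 2748, 2993 and 4334 CPM for TNNT2. Of 17 skeletal muscle markers, 11 were analysed here, and they summed to 19.9 to 25.0 CPM at Day 30, 22.3 to 27.6 at Day 60 and 6.32 to 15.2 at Day 113. Of these, ACTN3 (means of 8.97, 9.10 and 0.535 CPM at the 3 days) and TNNT3 (7.05, 8.00 and 1.01 CPM) held most of the sum at the first 2 days. The others, all scarce, did not all follow them. Means rose for MYH3 (1.36, 2.04 and 2.61 CPM), MYLPF (0.229, 0.398 and 0.878 CPM) and MYOD1 (0.272 and 0.525 CPM at the later days), which had no count at Day 30. Means fell for MYH4 (0.552, 0.116 and 0.103 CPM). The 8 fibroblast markers summed to 3356 to 7712 CPM at Day 30, 2072 to 3574 at Day 60 and 5450.2 to 13092 at Day 113. The collagen genes COL1A1, COL1A2 and COL3A1 carried these sums, and the other 5 did not all follow them: PDGFRA had means of 144, 96.5 and 32.3 CPM at the 3 days and POSTN of 56.0, 84.0 and 195 CPM. The 8 endothelial markers summed to 56.5 to 83.0, 39.8 to 66.1 and 196 to 814 CPM, respectively. The 8 endoderm and epithelial markers summed to 473 to 1117 CPM at Day 30, 41.0 to 52.7 at Day 60 and 15.9 to 32.9 at Day 113, with AFP alone at means of 499.8, 5.95 and 1.45 CPM. Not all of the 8 followed the sum, since SOX17 had means of 2.95, 1.08 and 8.00 CPM. The part of these lists in the results for MYOM2, NEB, MYOM3 and the other scaffold genes was not tested, and in bulk RNA fewer cells of a type and less RNA per cell cannot be told apart.

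The 3 promoters shown are those of the most heavily counted gene (TTN), of the gene with the highest level per length (MYBPC3), and of the gene that was higher at Day 113 than at Day 60 (LDB3). Each run is the reference sequence before a RefSeq start (GRCh38.p14), 5′ to 3′ on the gene's strand, with annotated exons removed. It covers chr2:178807424-178807673 (minus strand) for TTN, inside the annotated span of the gene but outside its exons, chr11:47352703-47352952 (minus strand) for MYBPC3 and chr10:86668261-86668448 (plus strand) for LDB3. Capitals mark matches to the motif of MEF2, a transcription factor family of muscle, and to GATAA, the core motif of GATA factors.
TTN: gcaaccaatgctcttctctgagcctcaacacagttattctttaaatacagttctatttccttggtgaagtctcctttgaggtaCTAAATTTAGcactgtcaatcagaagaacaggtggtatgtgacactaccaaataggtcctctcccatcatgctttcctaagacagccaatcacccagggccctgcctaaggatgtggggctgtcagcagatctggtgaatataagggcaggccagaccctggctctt
MYBPC3: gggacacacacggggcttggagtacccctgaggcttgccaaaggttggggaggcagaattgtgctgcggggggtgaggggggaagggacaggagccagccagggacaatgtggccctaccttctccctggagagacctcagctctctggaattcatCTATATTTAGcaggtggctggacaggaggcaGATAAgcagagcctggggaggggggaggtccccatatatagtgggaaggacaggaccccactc
LDB3: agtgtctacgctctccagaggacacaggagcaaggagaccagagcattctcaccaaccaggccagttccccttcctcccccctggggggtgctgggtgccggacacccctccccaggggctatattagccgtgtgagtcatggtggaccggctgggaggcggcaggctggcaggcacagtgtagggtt

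RefSeq promoters were matched for 7 of the 9 genes. Windows were searched on both strands for the MEF2 motif, the CArG box of serum response factor, the TEAD motif CATTCC, the core GATAA and the box named TATAAA. They ran from 110 bases (MYOM1) to 250 bases (TTN and MYBPC3 among them), and NEBL and LDB3 had more than 1. The shares for windows of 250 bases given next therefore do not match the count per gene. The MEF2 motif was present in the windows of 2 of the 7, TTN and MYBPC3. Of 35116 human promoter windows of 250 bases, 2.80% held it. A CArG box was in 1.16% of them, the TEAD motif in 11.9%, the GATA core in 20.4% and the TATA box in 10.7%. The GATA core was present for 3 of the 7 genes (MYBPC3, MYOM1 and NEB) and the TEAD motif for MYOM3. The LDB3 window of 188 bases held none of the 5 motifs, where 2.18% of promoter windows of that length held the MEF2 motif and 16.7% held the GATA core. A match describes letters in a window, not a bound site.

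Per length of transcript, the 9 genes fell into a steep order that changed little with day. MYBPC3 led at Day 30 with 479 ± 51.0 CPM per kb (SD, n = 4), followed by LDB3 with 301 ± 34.8, MYOM1 with 180 ± 36.0 and NEBL with 171 ± 17.7, and the wells of MYOM1 and NEBL overlapped. TCAP stood at 101 ± 10.8 and TTN at 47.0 ± 9.73 CPM per kb, while NEB, MYOM2 and MYOM3 lay between 0.121 and 0.198 CPM per kb and overlapped. At Day 60 the same groups followed each other, with MYBPC3 at 447 ± 58.6 CPM per kb and TTN at 57.6 ± 5.90 (SD, n = 3). At Day 113 MYBPC3 stood at 423 ± 26.1 and LDB3 at 360.0 ± 9.22 CPM per kb (SD, n = 4), and the wells of TCAP (70.5 ± 17.9) overlapped those of TTN (47.6 ± 16.9). Lengths were those of the longest annotated transcript (GENCODE release 29), and heart isoforms of titin leave out many of the exons counted in its 109224 bases.

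**Figure D1:**
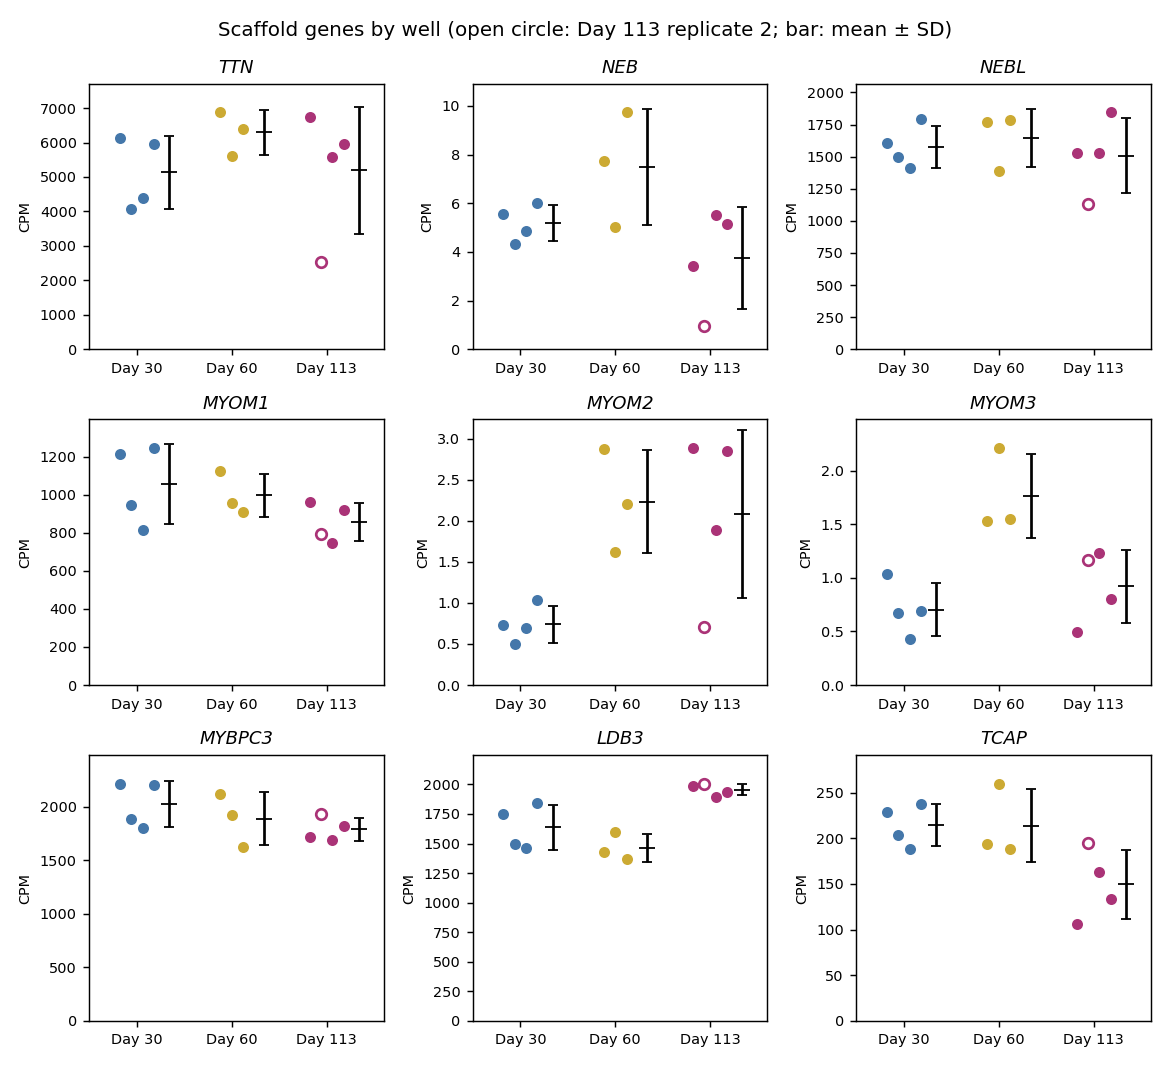
Level of each of the 9 scaffold genes (CPM, linear axes from 0) in each well of Day 30, Day 60 and Day 113. Points are wells, the open circle is Day 113 replicate 2, and bars give the mean ± SD. LDB3 wells of Day 113 all lie above those of the other days, MYOM2 wells of Day 60 all lie above those of Day 30, and the open circle is the lowest point of all for TTN, NEB and NEBL.

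TTN lies on chromosome 2 (178525989 to 178830802, minus strand, GRCh38) with 363 exons in its longest transcript. Its levels at Day 30 were 6129, 4065, 4389.7 and 5969.9 CPM in replicates 1 to 4. At Day 60 they were 6885, 5607 and 6397 CPM, and at Day 113 they were 6744, 2535, 5573 and 5956 CPM. The Day 60 wells lay inside or above the Day 30 range, and 1 Day 113 well stood far below every other well.

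The fitted log2 fold change of TTN was 0.29 ± 0.24 (SE) from Day 30 to Day 60 and 0.02 ± 0.22 from Day 30 to Day 113, with adjusted p-values of 0.541 and 0.963 (edgeR quasi-likelihood test, Benjamini-Hochberg over all genes). From Day 60 to Day 113 it was -0.28 ± 0.24 (adjusted p = 0.456). With a correction for transcript length within each library, the change from Day 30 to Day 113 was 0.45 (adjusted p = 0.0118, range over alternatives 0.0118 to 0.987) and that from Day 60 to Day 113 turned to 0.25, so no direction is given for TTN. TTN-AS1, an antisense RNA gene whose exons cover 9.57% of the TTN exon bases, held 194 counts over all wells. Whether counting used strand was not given in the sources used here.

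Day 113 replicate 2 stood apart in how counts fell with transcript length, and the scaffold genes differ widely in that length. Among genes other than the 9 with a mean of at least 5 CPM, the 276 with transcripts over 12 kb had a median log2 level of -0.44 in that well relative to their mean over the 11 wells. In the other 10 wells the median of these genes was -0.02 to 0.10. The 274 genes of up to 1 kb had a median of 0.50 in that well. Relative to the other Day 113 wells, the log2 level there was -1.26 for TTN, -1.83 for NEB and -0.52 for NEBL, the 3 genes with the longest transcripts, and 0.56 for TCAP, the shortest. MYOM2 was low there as well (-1.31) although its longest transcript has 5014 bases, while MYBPC3 (0.15), LDB3 (0.05) and MYOM1 (-0.13) were close to the other wells and MYOM3 was at 0.35. Without that well the fitted change of TTN from Day 30 to Day 113 was 0.25 (adjusted p = 0.196).

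**Figure D2:**
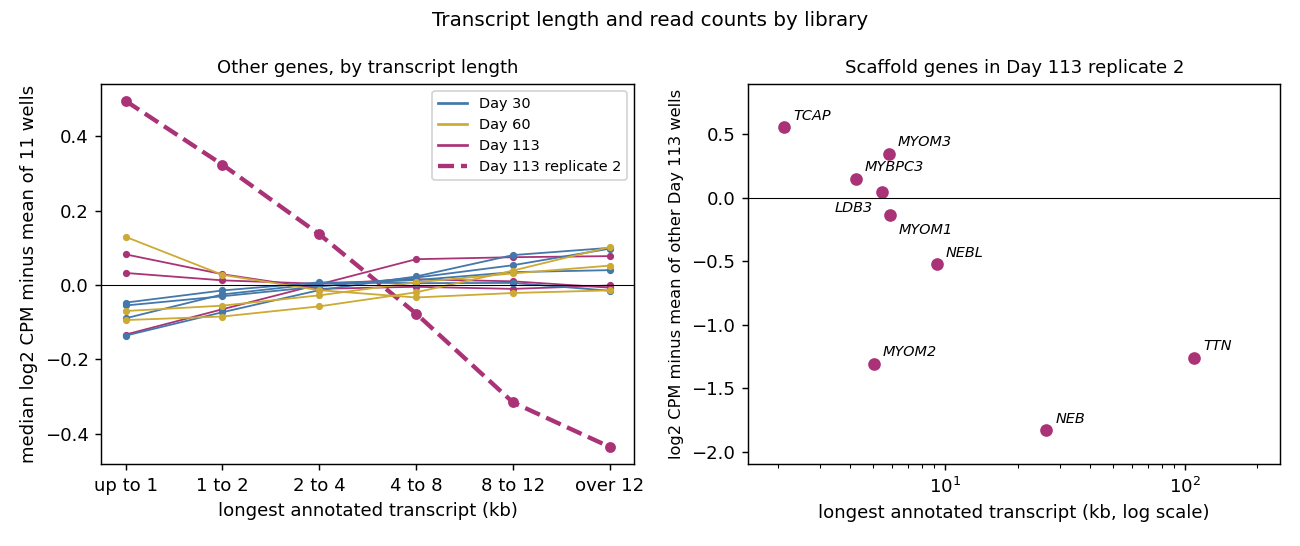
Left: median log2 CPM of other genes minus their mean over 11 wells, by length of the longest annotated transcript, with 1 line per well coloured by day and Day 113 replicate 2 dashed. Right: log2 CPM of each scaffold gene in Day 113 replicate 2 minus the mean of the other Day 113 wells, against transcript length (log scale). The dashed line falls from 0.50 for the shortest to -0.44 for the longest genes, and TTN and NEB lie more than 1 log2 unit below 0.

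NEBL was counted about as heavily as LDB3 and NEB was scarce. NEBL, on chromosome 10 (20779973 to 21174187, minus strand), stood at 1604, 1494, 1415 and 1791 CPM at Day 30, 1771, 1386 and 1783 CPM at Day 60, and 1527, 1132, 1527 and 1847 CPM at Day 113. The days overlapped throughout, and the change from Day 30 to Day 113 was -0.06 ± 0.14 (SE, adjusted p = 0.764, edgeR quasi-likelihood test).

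NEB, on chromosome 2 (151485336 to 151734487, minus strand), stood at 5.58, 4.34, 4.87 and 6.01 CPM at Day 30. It reached 7.72, 5.01 and 9.75 CPM at Day 60 and 3.43, 0.937, 5.51 and 5.13 CPM at Day 113. The Day 60 wells were spread most widely upwards, the lowest Day 113 well was again replicate 2, and no pair of days was free of overlap. The change from Day 60 to Day 113 was -1.00 ± 0.41 (SE, adjusted p = 0.0912), short of the threshold in edgeR without the replicate block. It was past the threshold with that block (-1.24, adjusted p = 0.0182, edgeR) and in limma-voom (adjusted p = 0.0419, range over alternatives 0.0182 to 0.294). Within each library, NEB counts came to 0.290% to 0.348% of NEBL counts at Day 30, 0.362% to 0.547% at Day 60 and 0.0828% to 0.361% at Day 113.

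At the M-band, MYOM1 carried nearly all myomesin counts. Myomesin 1 is the general cross-linker of the M-band, whereas M-protein (MYOM2) is known from adult heart and fast skeletal fibres, and MYOM3 from slower skeletal fibres. MYOM1, on chromosome 18 (3066807 to 3220108, minus strand), stood at 1215, 946, 813 and 1247 CPM at Day 30, 1123, 959 and 909 CPM at Day 60, and 959.8, 795, 747 and 921 CPM at Day 113. The Day 113 wells lay in the lower part of the Day 30 range or below it, and the change of -0.30 ± 0.14 (SE) did not pass the test (adjusted p = 0.0992, edgeR quasi-likelihood test). With the well number as a replicate block it passed (-0.29, adjusted p = 0.0154), as it did without Day 30 replicate 3 (-0.41, adjusted p = 0.0257), where the range over alternatives was 0.0154 to 0.282. From Day 60 to Day 113 MYOM1 changed by -0.22 ± 0.15 (SE, adjusted p = 0.305, edgeR). This also passed only with the block, at -0.29 (adjusted p = 0.0381, edgeR).

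MYOM2, on chromosome 8 (2045040 to 2165552, plus strand), had 19, 15, 21 and 30 counts in the Day 30 wells. It had 90, 44 and 70 counts at Day 60 and 100, 19, 66 and 71 counts at Day 113. In CPM these were 0.726, 0.50, 0.691 and 1.03 at Day 30, then 2.87, 1.62 and 2.21, then 2.89, 0.712, 1.88 and 2.85. All Day 60 wells were above all Day 30 wells, and 3 of the 4 Day 113 wells were, with replicate 2 inside the Day 30 range. Wells of Day 30 and Day 60 did not overlap, in either direction, for 24.8% of all genes.

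MYOM2 rose 3.02-fold from Day 30 to Day 60 (log2 1.60 ± 0.49 SE, adjusted p = 0.0491, edgeR quasi-likelihood test) and was 2.82-fold higher at Day 113 than at Day 30 (1.495 ± 0.46, adjusted p = 0.0199). From Day 60 to Day 113 the value was -0.10 ± 0.48 (adjusted p = 0.910). The first call was lost without any single well other than Day 113 replicates 1 and 2 and in limma-voom (adjusted p up to 0.169, range over alternatives 0.0172 to 0.169), with log2 values of 1.40 to 1.80. The second was lost without Day 30 replicate 2, Day 113 replicate 1 or Day 113 replicate 4 and in limma-voom (up to 0.0702, range over alternatives 0.00344 to 0.0702).

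Read against MYOM1 in the same library, which does not depend on library scaling, MYOM2 counts were 0.0529% to 0.0850% of MYOM1 counts at Day 30. They were 0.169% to 0.256% at Day 60 and 0.301%, 0.0896%, 0.252% and 0.309% in replicates 1 to 4 of Day 113. The wells of Day 30 did not overlap those of either later day. The difference in mean log2 ratio was 1.65 at Day 60 and 1.62 at Day 113, each with an exact permutation p of 0.0286 (two-sided), the smallest such a test allows here. Adjusted over the 15 ratio tests these came to 0.0857, and 0 of the 15 tests fell under 0.05 after adjustment, while 5 fell under it before (exact permutation test).

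MYOM3, on chromosome 1 (24056035 to 24112175, minus strand), was as scarce as MYOM2. It had 27, 20, 13 and 20 counts at Day 30, 48, 60 and 49 at Day 60 and 17, 31, 43 and 20 at Day 113. All Day 60 wells lay above the wells of both other days. The change was 1.32 ± 0.52 (SE, log2) from Day 30 to Day 60 and -0.93 ± 0.51 from Day 60 to Day 113, and neither passed the test (adjusted p = 0.128 and 0.210, edgeR quasi-likelihood test). Its ratio to MYOM1 was higher by 1.41 log2 units at Day 60 than at Day 30 (exact permutation p = 0.0286, adjusted 0.0857).

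MYBPC3, on the thick filament, showed no change past the test between any 2 days. The gene lies on chromosome 11 (47331397 to 47352702, minus strand) and stood at 2215, 1882, 1797 and 2202 CPM at Day 30. It stood at 2118, 1921 and 1626 CPM at Day 60 and 1714, 1931, 1689 and 1816 CPM at Day 113. The days overlapped, and the fitted changes were -0.10 ± 0.12, -0.08 ± 0.12 and -0.18 ± 0.11 (SE, log2) for Day 60 against Day 30, Day 113 against Day 60 and Day 113 against Day 30, none past the test (adjusted p = 0.695, 0.676 and 0.216, edgeR quasi-likelihood test).

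Relative to TTN in the same library, MYBPC3 counts were 36.1% to 46.3% at Day 30 and 25.4% to 34.3% at Day 60, without overlap. The difference in mean log2 ratio was -0.41 (exact permutation p = 0.0286, adjusted 0.0857). At Day 113 the ratio was 25.4%, 76.2%, 30.3% and 30.5%, with the well of low TTN far above the others.

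At the Z-disc, LDB3 and TCAP moved in opposite directions between Day 60 and Day 113. LDB3, on chromosome 10 (86668449 to 86736068, plus strand), stood at 1753, 1495, 1461 and 1844 CPM at Day 30. It stood at 1425, 1597 and 1372 CPM at Day 60 and 1989, 2006, 1896 and 1936 CPM at Day 113. Every Day 113 well was above every earlier well, and the Day 113 wells had a coefficient of variation of 2.56%, against 11.6% at Day 30 and 8.04% at Day 60. Of all genes, 30.6% had no overlap, in either direction, between Day 113 and Day 60 wells, and 35.1% between Day 113 and Day 30 wells.

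LDB3 rose 1.34-fold from Day 60 to Day 113 (log2 0.42 ± 0.11 SE, adjusted p = 0.00993, edgeR quasi-likelihood test). This call was lost only without Day 60 replicate 3, among the alternatives run (0.36, adjusted p = 0.0614, range 0.000422 to 0.0614). From Day 30 to Day 113 the value was 0.26 ± 0.10 with an adjusted p of 0.0543, which passed in DESeq2 (0.0161), in limma-voom (0.0304), with the replicate block (0.0370) and with the transcript length correction (0.0496, range over alternatives 0.0161 to 0.159). From Day 30 to Day 60 it was -0.16 ± 0.11 (adjusted p = 0.414). The difference between the 2 intervals, 0.58 ± 0.19, did not pass (adjusted p = 0.0686).

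TCAP, a short gene of 2 exons on chromosome 17 (39664187 to 39666555, plus strand), stood at 229, 203, 188 and 238 CPM at Day 30. It stood at 194, 259.8 and 188 CPM at Day 60 and 107, 195, 163 and 134 CPM at Day 113. At Day 113, 3 of the 4 wells were below every earlier well, and replicate 2 lay inside the earlier range.

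TCAP fell 1.43-fold from Day 60 to Day 113 (log2 -0.52 ± 0.17 SE, adjusted p = 0.0368, edgeR quasi-likelihood test) and 1.43-fold from Day 30 to Day 113 (-0.52 ± 0.16, adjusted p = 0.0178). From Day 30 to Day 60 the value was -0.01 ± 0.17 (adjusted p = 0.993). The call against Day 60 was lost without Day 60 replicate 2 (-0.35), Day 113 replicate 1 (-0.38) or Day 113 replicate 4 (-0.47) and with only those 2 days fitted (adjusted p up to 0.194, range over alternatives 0.00566 to 0.194). The call against Day 30 was lost without Day 30 replicate 1, Day 30 replicate 4 or Day 113 replicate 4 (adjusted p up to 0.0530, range over alternatives 0.00227 to 0.0530).

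The well with the lowest TCAP, Day 113 replicate 1, had the highest summed fibroblast (13092 CPM) and endothelial (814 CPM) markers. The other Day 113 wells did not follow that order, since replicate 4 had less TCAP than replicate 3 with fibroblast sums of 5450.2 and 11303 CPM. The part of these markers in the TCAP difference was not tested. LDB3 in Day 113 replicate 1 was as high as in the other wells of that day.

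**Figure D3:**
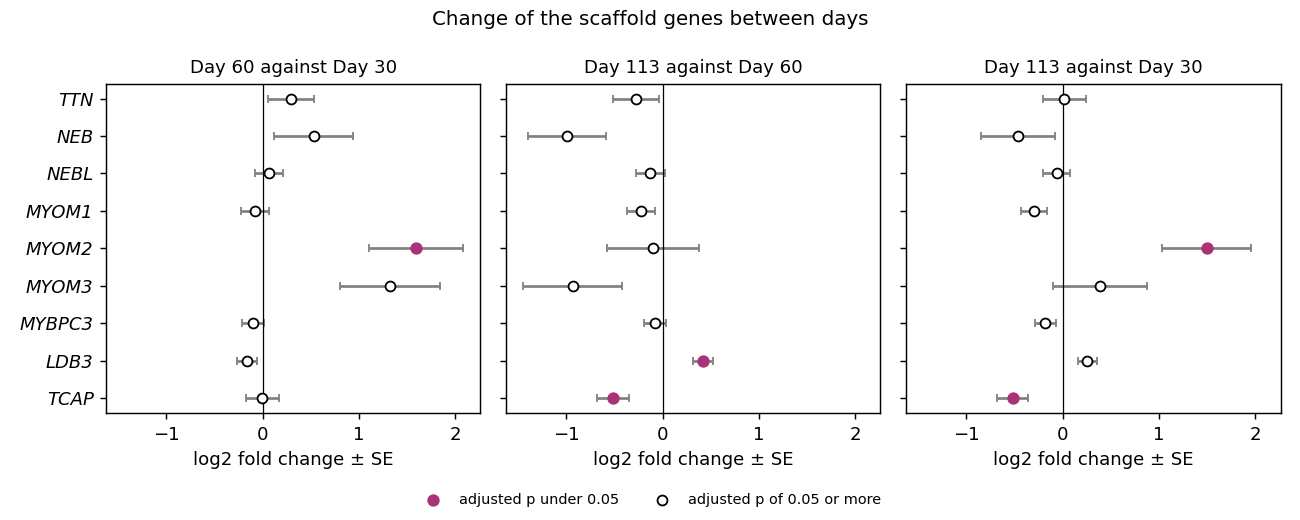
Fitted log2 fold change ± SE of each scaffold gene for the 3 pairs of days. Filled points had an adjusted p under 0.05 in the edgeR test without the replicate block and open points did not. MYOM2 is filled at 1.60 and 1.495 against Day 30, LDB3 at 0.42 and TCAP at -0.52 for Day 113 against Day 60, and TCAP at -0.52 for Day 113 against Day 30.

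Counted together, 1 of the 9 genes passed at Day 60 against Day 30, where 10.3% of all genes did. At Day 113 against Day 60, 2 of the 9 passed beside 24.0% of all genes, and at Day 113 against Day 30, 2 of the 9 passed beside 34.5%. With the replicate block 4 of the 9 passed in that last pair of days, MYOM1 and LDB3 in addition to MYOM2 and TCAP. Under that block 35.7% of all genes passed. Over any change between days, 3 of the 9 passed beside 37.1% of all genes. The shares without the block were near the background or below it. The difference between the 2 intervals was called for 0 of the 9 in edgeR (3 at an unadjusted p under 0.05) beside 9.34% of all genes, and for 1, LDB3, in DESeq2 and limma-voom. The median log2 change of the 9 was 0.06, -0.22 and -0.06 for the 3 pairs of days in the order given, and that of all genes was -0.01, 0.00 and -0.02. In the same order, wells did not overlap for 2, 2 and 1 of the 9, beside 24.8%, 30.6% and 35.1% of all genes.

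Within Day 30, replicates 2 and 3 had less than replicates 1 and 4 of each of the 9 genes. The same order was seen for 10 of the 13 cardiomyocyte markers and for 19.4% of all genes. The summed cardiomyocyte markers were 48174 and 49969 CPM in replicates 1 and 4 and 41859 and 35514 CPM in replicates 2 and 3. The fibroblast sums ran the other way, at 4514 and 3356 CPM in replicates 1 and 4 and 7712 and 6799.6 CPM in replicates 2 and 3. The part of cell composition in this spread was not tested.

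Across the 11 libraries, the 3 genes with long transcripts followed each other most closely. The Pearson correlation of log2 CPM was 0.82 for TTN with NEB, 0.82 for TTN with NEBL and 0.83 for NEB with NEBL, and 0.78 for MYOM1 with MYBPC3. TTN with MYBPC3 reached 0.01 and TTN with TCAP -0.20. The points share libraries, days and the outlying well, and these values are descriptions.

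Among 11939 genes with a mean of at least 5 CPM, those most like TTN were RYR2, the cardiac calcium release channel, DST and MEF2A, with correlations of 0.99, 0.98 and 0.97 over 11 libraries. Without Day 113 replicate 2 the correlations were 0.96, 0.94 and 0.92. For NEB they were ARHGAP5 (0.99), AKAP9 (0.96) and PANK3 (0.96), and for NEBL ZNF24 (0.93), CCNT2 (0.92) and TOGARAM1 (0.91). Without that well these were 0.96, 0.86 and 0.87 for NEB and 0.84, 0.89 and 0.79 for NEBL, and those of the remaining 6 scaffold genes given next were between 0.89 and 0.98. MYOM1 was most like LTO1 (0.94), ZMIZ2 (0.92) and MTMR1 (0.91), MYOM2 most like PLCB4 (0.98), CACNA2D1 (0.96) and INPP4B (0.95), and MYOM3 most like DNPEP (0.92), SH3BP2 (0.88) and PTPRH (0.88). MYBPC3 was most like ASAP3 (0.95), RASSF1 (0.91) and again LTO1 (0.90). LDB3 was most like MRAS (0.96), SLC5A1 (0.94) and LMOD1 (0.94), and TCAP most like NTPCR (0.97), RASSF4 (0.94) and ACADS (0.94).

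Around these 9 genes, other Z-disc genes changed in both directions. Of 24, 7 rose and 2 fell from Day 30 to Day 60, where 4.39% of all genes rose and 5.91% fell. From Day 60 to Day 113, 8 rose and 3 fell, beside 12.9% and 11.1% of all genes. The counts of both intervals include LRRC39, which the list held although its protein is known from the M-band. Its log2 changes were 0.60 and then -0.65 (adjusted p = 0.0431 and 0.0152, edgeR). At Day 113 against Day 30, 10 were higher and 5 lower, beside 17.3% and 17.2% of all genes, with a median log2 change of 0.26. XIRP2, an actin-binding Xin-repeat protein, had a mean of 3.97 ± 0.557 CPM in the 4 Day 30 wells (SD) and of 35.3 ± 7.81 CPM in the 4 Day 113 wells (log2 3.15, adjusted p = 1.09e-07, edgeR). CRYAB, the chaperone alphaB-crystallin, rose by 1.35 log2 units. ACTN2, the alpha-actinin that LDB3 binds, fell by 0.64 log2 units from 1710.1 ± 293 to 1100.0 ± 32.4 CPM (SD, n = 4 each), and SORBS2, a Z-disc adaptor, fell by 0.64.

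Other M-band and thick-filament scaffold genes were mostly higher at Day 60 than at Day 30. Of the 16 of 18 in the table, 7 rose and 0 fell in edgeR (0 lower at an unadjusted p under 0.05), with a median log2 change of 0.43. Of all genes, 4.39% rose and 5.91% fell. From Day 60 to Day 113, 0 rose (3 higher at an unadjusted p under 0.05) and 5 fell in edgeR, and without Day 113 replicate 2 these counts were 2 and 6. In the fit of all wells, 12.9% of all genes rose and 11.1% fell. Relative to Day 30, 8 were higher and 4 lower at Day 113, beside 17.3% and 17.2% of all genes. MYBPH, myosin-binding protein H, had 0, 0, 1 and 0 counts at Day 30, 10, 20 and 37 at Day 60 and 6, 29, 60 and 22 at Day 113, and was called higher at both later days. SMPX, a small muscle protein, was higher by 0.76 log2 units at Day 113 than at Day 30. KLHL41, a kelch-repeat protein, fell by 1.08 log2 units from 248 ± 8.03 to 118 ± 8.62 CPM, and ALPK3, an M-band pseudokinase, fell by 1.06 from 922 ± 141 to 443 ± 61.5 CPM (SD, n = 4 each).

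Of the 2 other nebulin-family genes, NRAP, an anchoring protein of myofibril assembly, rose from 7.10 ± 2.30 to 24.2 ± 5.34 CPM between Day 30 and Day 113 (log2 1.77, adjusted p = 1.65e-05, edgeR). LASP1 stood at -0.05 (adjusted p = 0.867). A further list held 13 genes of signalling at titin, 6 of them also on the lists above. Whether each protein binds titin directly was not examined. Of the 13, 4 rose and 2 fell from Day 30 to Day 60. Of all genes, 4.39% rose and 5.91% fell. From Day 60 to Day 113, 2 of the 13 rose and 6 fell, beside 12.9% and 11.1% of all genes. Of the 13, 5 were higher and 4 lower at Day 113 than at Day 30, beside 17.3% and 17.2% of all genes. S100A1, a calcium sensor, rose by 1.58 log2 units and TRIM63, the ubiquitin ligase MuRF1, by 0.68. CAPN3, a protease that docks on titin, fell by 1.89 log2 units from 35.9 ± 4.48 to 9.65 ± 2.34 CPM (SD, n = 4 each), and OBSL1, the obscurin-like M-band protein, fell by 0.56.

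Titin's isoforms are set by splicing, which a count per gene does not show. Of 15 splicing regulators of sarcomere transcripts, 1 rose and 0 fell from Day 30 to Day 60 in edgeR (3 lower at an unadjusted p under 0.05). Of all genes, 4.39% rose and 5.91% fell. From Day 60 to Day 113, 2 of the 15 rose and 3 fell, beside 12.9% and 11.1% of all genes. Without Day 113 replicate 2 the counts of regulators were 2 and 1, then 2 and 1. Over the whole culture, from Day 30 to Day 113, 3 of the 15 were higher and 3 lower, with a median log2 change of 0.04. These are near the 17.3% and 17.2% of all genes. RBM20, the repressor of titin exons, stood at 254 ± 47.2 CPM at Day 30 and 262 ± 35.2 CPM at Day 113 (SD, n = 4 each; log2 0.04 ± 0.14 SE, adjusted p = 0.854, edgeR). The splicing kinase SRPK3 rose by 1.45 log2 units and SRSF5 by 0.72, while RBFOX2 fell by 0.73 and QKI by 0.60.

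**Figure D4:**
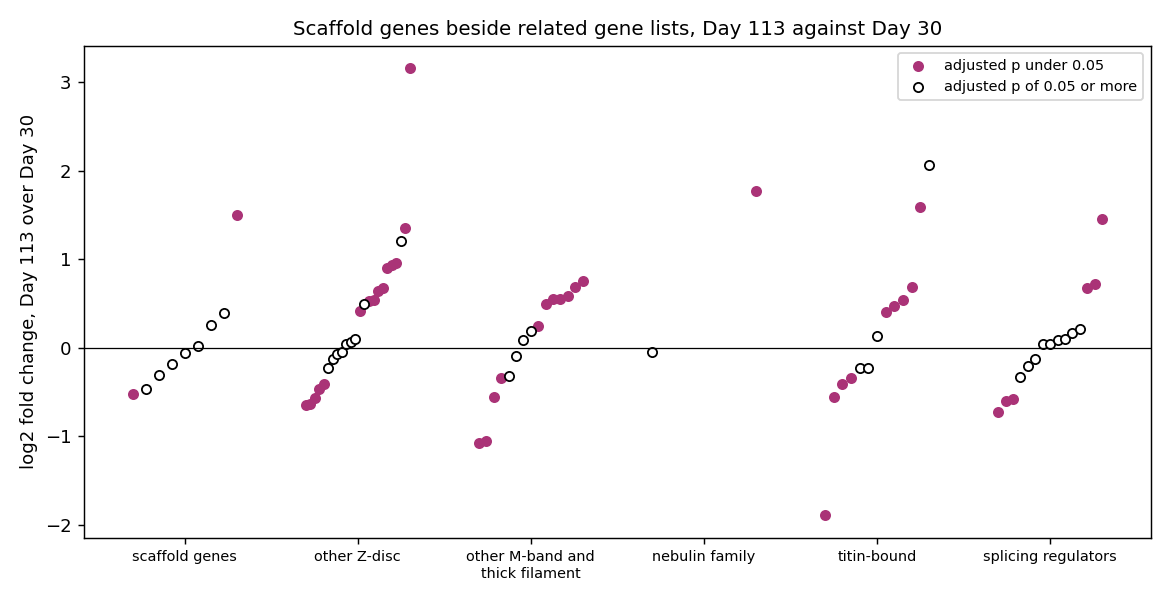
Fitted log2 fold change from Day 30 to Day 113 of the 9 scaffold genes and of the genes of 5 related lists, each point 1 gene, sorted by value within its list. Filled points had an adjusted p under 0.05 in edgeR without the replicate block. MYBPH is not drawn because its Day 30 wells held 0 or 1 counts. XIRP2 is the highest point (3.15) and CAPN3 the lowest (-1.89).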

How the data were processed

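Poly(A) RNA of 11 wells was sequenced as paired 150-base reads, per the labels' protocols. The authors' deposited counts are whole numbers of reads per gene symbol and well, without normalization. The submitters' processing notes name STAR 2.5.3a, featureCounts 2.0.3 and hg38, with no settings, and the annotation and strandedness are not given in the sources used here. The authors also deposited TPM values. The gene lengths they imply were unrelated between libraries (median Spearman rho -0.00166 over 55 pairs of libraries), so TPM entered no result.

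Counts (24.1 M to 34.5 M per library) were tested with edgeR 4.0.16 (quasi-likelihood, TMM, filterByExpr with a minimum count of 10, all 11 wells, day as factor) in R 4.3.3. The filter removed 0 genes and all 9 scaffold genes were tested. P-values were adjusted by Benjamini-Hochberg over 19990 genes within each comparison, with a threshold of 0.05. SE was derived from the fitted log2 change and its F statistic. Within-library ratios used log2 counts with a pseudocount of 0.5 and exact permutation tests. Correlations used log2(CPM + 0.5). Transcript lengths (GENCODE release 29) matched 84.7% of genes by symbol. Alternatives included other scalings, filters, DESeq2 1.42.0, limma-voom (limma 3.58.1), a transcript length offset, a replicate block and leaving out each well. Wells of the same number deviated together between Day 30 and Day 113 (correlations over 0.1 in all 4 pairs, 0.116 to 0.176). That pairing by number comes from the data and not from the labels. It entered as a replicate block over all 11 wells, Day 60 included, in an alternative fit, and the main values and figures are without it. Blocked values are given where they change a call.

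The scaffold genes, related lists and markers were chosen with earlier results of these data known. From each list, the 2 highest and 2 lowest called changes between Day 30 and Day 113 are named, and for each scaffold gene the 3 most correlated genes. RBM20, LASP1 and LRRC39 are named outside that rule, after their values were seen. Libraries had no molecular identifiers, so small counts carry counting error that the test covers only through its dispersion.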

Additional observations from a re-analysis of the deposited data

Results flagged for a closer look

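In Day 113 replicate 2 the log2 ratio of MYOM2 to MYOM1 counts was -10.09, far below the other Day 113 wells at -8.37, -8.62 and -8.33. The log2 ratio of MYBPC3 to TTN counts in the same well was -0.39, far above the others at -1.98, -1.72 and -1.71. In each case the gap to the nearest well exceeded Dixon's 95% limit for 4 samples. Of the groups of 4 wells checked, 28 in all, chance would mark about 1 in 20. This is the well in which genes with long transcripts had low counts. The part of that trend in these ratios was not tested.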

How the results depend on the processing

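Of the planned settings other than leaving out a well, 265 of 291 values of the 9 genes' fold changes kept their direction and side of the threshold. The number of scaffold genes past the threshold at Day 60 against Day 30 was 1, and 0 in limma-voom, with genes under a mean CPM of 5 removed (MYOM2 was then not tested), or at a threshold of 0.01. It was 0 to 1 when single wells were left out. At Day 113 against Day 60 it was 2, with 1 at a threshold of 0.01, 1 with only those 2 days fitted, and 1 to 2 without single wells. At Day 113 against Day 30 it was 2, with 1 under the CPM filter and 0 at 0.01. With the transcript length offset it was 4 (TTN and LDB3 were added), beside 36.0% of all genes. It was 0 to 3 without single wells, 0 being without Day 113 replicate 4. Any change over the days was called for 3 genes, for 0 at 0.01 and for 1 to 3 without single wells. The difference between the intervals was called for 0, and for 1 in DESeq2 and 1 in limma-voom.

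With the well number as a replicate block, 4 genes passed at Day 113 against Day 60 (NEB and MYOM1 were added), 4 at Day 113 against Day 30 (MYOM1 and LDB3 were added) and 5 over any change. Of all genes, 24.8%, 35.7% and 38.9% passed under the block, respectively. Of the 3 pairs of wells per comparison, correlations were 0.065 to 0.16 between Day 30 and Day 60 and 0.013 to 0.30 between Day 60 and Day 113. These were not all over 0.1, so pairing by number was read from the data only between Day 30 and Day 113. The block was nevertheless fitted over all wells, those of Day 60 included, and its calls against Day 60 rest on that. The block changed no other call of a pair of days. The best correlation was with the own number in 16 of 20 comparisons over all pairs of days.

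Reversed signs, none past the threshold: TCAP at Day 60 against Day 30 was 0.0091 with RLE factors, 0.034 with upper-quartile factors, 0.0091 in DESeq2, 0.019 under the CPM filter, 0.013 with 2 days fitted and 0.043 with the length offset. TTN at Day 113 against Day 60 was 0.25 with the length offset, and at Day 113 against Day 30 it was -0.0074 with upper-quartile factors, -0.052 in limma-voom and -0.031 with the replicate block. Without single wells, the ranges that crossed 0 at Day 60 against Day 30 were -0.19 to 0.0088 for MYOM1, -0.17 to 0.021 for MYBPC3 and -0.17 to 0.10 for TCAP. At Day 113 against Day 60 they were -0.30 to 0.18 for MYOM2 and -0.18 to 0.0034 for MYBPC3, and at Day 113 against Day 30 -0.13 to 0.25 for TTN and -0.18 to 0.052 for NEBL. For log2 ratios at Day 113 against Day 60 they were -0.21 to 0.38 for MYOM2 to MYOM1, -0.63 to 0.13 for TCAP to TTN and -0.063 to 0.46 for MYBPC3 to TTN, and at Day 113 against Day 30 -0.48 to 0.051 for MYBPC3 to TTN. The causes were not tested. Levels per kb with the length of all exons together changed the order only between MYOM1 and NEBL and between NEB and MYOM3, whose wells overlapped. That alternative and the lists without Day 113 replicate 2 were chosen after seeing the data, and lengths from proteins were not run. MYOM2 and MYOM3, at 13 to 100 counts per well, are limited by depth.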
